A study of Mus musculus with 17 samples.

Results

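The genes described here are 9 genes by which mouse B cells are recognised, *Cd79a*, *Cd79b*, *Ms4a1*, *Pax5*, *Cd22*, *Blk*, *Fcrla*, *Cr2* and *Fcer2a*. They were taken from a named list by gene symbol, not by any measured value, and each was found once among the 55401 gene identifiers of the files. Gene expression was measured by RNA-seq of whole perigonadal white adipose tissue (pWAT), the fat around the gonads, from 17 C57BL/6J mice on standard chow, which the study collected at 16 weeks of age. The groups were 5 wild-type (WT) females, 5 U9-KO females, 3 WT males and 4 U9-KO males, with 1 library for each mouse. U9-KO mice were homozygous for a deletion of all exons of *U90926*, a long noncoding RNA gene, in every cell of the body, and the WT mice were their littermates from crosses of heterozygous parents.

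A B cell senses antigen through a receptor made of an immunoglobulin and the signalling pair CD79A and CD79B, which pass the signal to Src family kinases such as BLK. CD20 (encoded by *Ms4a1*) and CD22 sit in the B cell membrane, CD22 as an inhibitory co-receptor, and PAX5 is the transcription factor that commits a cell to the B lineage and keeps it there. FCRLA is an intracellular Fc receptor-like protein of B cells, CR2 (CD21) binds complement fragments and lowers the threshold for receptor signalling, and the protein of *Fcer2a* (CD23) is the low-affinity IgE receptor of mature follicular B cells. In mice CR2 and CD23 are high on mature follicular or marginal zone B cells and low on B-1 cells, and plasma cells lose most of these transcripts. B cells in visceral fat lie in fat-associated lymphoid clusters and among the stromal cells.

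The libraries were estimated to hold between 19707134 and 27608168 counted reads. *U90926* was listed at 1 in WT female 3 and WT male 2 and at 0 in every other mouse, so its values do not check the genotype labels. Adipocyte genes summed to between 147098 and 490424 normalized counts, and markers of the epididymis to at most 13. Of the lymph node markers, *Madcam1*, an adhesion molecule of lymphoid vessels, reached 5 normalized counts and *Glycam1* 4 in the highest mouse. The stromal chemokine *Ccl21a* had 604 to 2836, and *Cxcl13* reached 2157. The whole list of 8 genes summed to between 10317 and 15922, most of it from *Enpp2* (2427 to 9964) and *Clu* (2248 to 9207). A list of 7 ovary genes summed to 87354 in U9-KO female 1 and 71616 in WT female 4, against 2760 to 19719 in the other 8 females, so these 2 libraries are named wherever a female result rests on them. In whole tissue, fewer B cells and less RNA per B cell cannot be told apart.

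The genes are spread over 7 chromosomes of GRCm38. *Cd79a* (chr7:24897381-24902197, plus strand) and *Cd22* (chr7:30865402-30880342) lie on chromosome 7, *Fcrla* (chr1:170917576-170927583) and *Cr2* (chr1:195136811-195176716) on chromosome 1, *Pax5* at chr4:44524757-44710487, *Fcer2a* at chr8:3681737-3694175, *Cd79b* at chr11:106311341-106314762, *Blk* at chr14:63372836-63417037 and *Ms4a1* at chr19:11249675-11266241. All but *Cd79a* are on the minus strand. In the GENCODE M21 annotation *Ms4a1*, *Pax5*, *Cd22* and *Fcrla* overlap other annotated genes, with antisense partners for the first 3, and reads in those stretches may be shared.

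RefSeq promoter windows (GRCm38.p6, 250 bases before to 50 after a gene start) were at hand for 6 of the 9 genes, *Cd79a*, *Pax5*, *Cd22*, *Fcrla*, *Cr2* and *Fcer2a*, in 8 windows. They are shown as background, and whether their motifs bear on the levels of the genes was not tested. The stretches below run 5′ to 3′ on the gene's strand and leave out annotated exons. Capitals mark the E-box CAGGTG on either strand in Cd79a, Fcrla and Cr2, the PU.1 core GAGGAA on either strand in Cd79a and Fcrla, and the EBF1 half-sites TCCC and GGGA, 2 bases apart, in Cd22.
Cd79a (chr7:24897247-24897380, plus strand): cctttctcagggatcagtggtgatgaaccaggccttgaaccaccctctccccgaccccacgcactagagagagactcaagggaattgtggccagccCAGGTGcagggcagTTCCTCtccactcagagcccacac
Cd22 (chr7:30879029-30879176, minus strand): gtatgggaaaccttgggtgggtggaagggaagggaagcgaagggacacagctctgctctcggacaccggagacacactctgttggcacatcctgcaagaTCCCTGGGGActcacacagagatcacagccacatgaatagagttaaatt
Fcrla (chr1:170927584-170927733, minus strand): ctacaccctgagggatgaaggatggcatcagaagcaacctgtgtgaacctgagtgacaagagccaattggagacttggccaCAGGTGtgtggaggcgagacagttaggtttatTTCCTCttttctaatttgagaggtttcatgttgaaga
Cr2 (chr1:195176720-195176869, minus strand): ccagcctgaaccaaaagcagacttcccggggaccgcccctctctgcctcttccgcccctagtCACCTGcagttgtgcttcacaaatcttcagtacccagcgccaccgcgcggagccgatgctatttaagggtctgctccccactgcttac

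The E-box CAGGTG, the class of site read by E proteins, was in 5 of the 8 windows (*Cd79a*, *Cd22*, *Fcrla*, *Cr2* and 1 of the 3 windows of *Fcer2a*), and in 20.2% of the 32851 windows of that length in the table. The EBF1 half-sites were in 1 of the 8 (*Cd22*, beginning at position -49 from the start) and in 0.904% of all windows. The PU.1 core was in 2 of the 8 and in 28.3% of all, the E-box CAGCTG in 1 and in 16.3%, and TATAAA in 2 and in 13.6%. The octamer ATGCAAAT was in none of the 8 windows and in 1.74% of all. Both strands were searched for each motif, no motif overlapped another in the printed stretches, and a match says only that these letters are present.

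All 9 genes were detected in every mouse. Levels are normalized counts, the reads of a gene divided by the size factor of its library, and levels of different genes are compared only per kilobase of exon. In females the mean level per kilobase was highest for *Cd79a* (139) and *Cd79b* (115), followed by *Blk* (47.2), *Fcrla* (31.6), *Ms4a1* (30.1), *Cd22* (23.7), *Fcer2a* (12.5), *Pax5* (11.02) and *Cr2* (3.48). The order in males was the same, from 71.4 for *Cd79a* and 52.2 for *Cd79b* to 4.91 for *Pax5* and 3.08 for *Cr2*. Some neighbours in this order changed places between mice. *Fcrla* was above *Ms4a1* in 6 of 10 females and *Fcer2a* above *Pax5* in 7 of 10. In males *Blk* was above *Fcrla*, *Ms4a1* above *Cd22*, and *Cd22* above *Fcer2a*, in 4 of 7 mice each. The mean over females was between 1.13 times (*Cr2*) and 2.67 times (*Ms4a1*) that over males. The size factors appeared to be set within each sex, so this is given without a test.

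In males both genes of the receptor's signalling pair had lower mean levels in U9-KO than in WT mice, and neither passed the adjusted threshold. *Cd79a* had 131, 208 and 106 normalized counts in the 3 WT males and 70, 72, 77 and 64 in the 4 U9-KO males. The lowest WT male was thus above the highest U9-KO male, and the means were 148 ± 53.2 (SD, n = 3) and 70.8 ± 5.38 (SD, n = 4). The log2 fold change was -1.003 (SE 0.221; limma over 21930 genes, unadjusted p = 0.00108 and adjusted p = 0.612), and the exact permutation test gave 0.0571, the smallest two-sided p that 3 against 4 mice allow. *Cd79b* had 91, 163 and 58 in WT males and 55, 61, 38 and 57 in U9-KO males, a log2 fold change of -0.86 (SE 0.32). Here WT male 3 fell among the U9-KO males.

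*Blk*, the kinase next in that pathway, had 49, 121 and 51 normalized counts in WT males and 31, 60, 37 and 28 in U9-KO males. U9-KO male 2 was above both lower WT males, and the log2 fold change was -0.83 (SE 0.37). *Pax5* was the other gene whose groups did not overlap, with 41, 99 and 48 in WT males against 23, 27, 33 and 33 in U9-KO males. Its log2 fold change was -0.99 (SE 0.32; limma, adjusted p = 0.612), and the exact permutation p was 0.0571. *Ms4a1* had 92, 157 and 54 against 58, 49, 38 and 41, with a log2 fold change of -0.99 (SE 0.33), and only WT male 3 and U9-KO male 1 were out of order. *Cd22* had 76, 93 and 53 against 41, 30, 24 and 62, with a log2 fold change of -0.95 (SE 0.33), and U9-KO male 4 was above WT male 3.

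The remaining 3 genes were the lowest in counts and the least separated. *Cr2* had 42, 35 and 21 normalized counts in WT males and 10, 8, 18 and 41 in U9-KO males, a log2 fold change of -0.95 (SE 0.51) in which U9-KO male 4 stood within the WT range. *Fcer2a* had 32, 36 and 21 against 13, 29, 16 and 45, and *Fcrla* 32, 37 and 23 against 36, 19, 19 and 32. Their groups overlapped, with log2 fold changes of -0.32 (SE 0.42) and -0.23 (SE 0.32), each smaller than its standard error.

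Across the males, all 9 genes had a lower mean log2 value in U9-KO mice, where 49.9% of all genes tested did, and their median log2 fold change was -0.95. By limma none of the 9 was below an adjusted p of 0.05, and neither did any other gene (0.0% of 21930). At an unadjusted p under 0.05, 6 of the 9 were lower (*Cd79a*, *Pax5*, *Ms4a1*, *Cd22*, *Cd79b* and *Blk*), against 4.09% of all genes. The groups did not overlap for 2 of the 9, against 3.8% of all genes with every U9-KO male below every WT male. WT male 2 was the highest male for 7 of the 9 genes. Without it the median log2 fold change was -0.61 and 1 of the 9, *Cd79a*, had an unadjusted p under 0.05. In that fit 766 of 21411 genes were lower at that threshold. The groups still did not overlap for *Cd79a* and *Pax5*. The number of the 9 genes without overlap was 5 without WT male 3, 4 without U9-KO male 2 or U9-KO male 4, 3 without U9-KO male 1, and 2 with any other male left out. Smaller groups separate more easily for any gene, and the share of all genes was not counted for them. These counts therefore cannot be set against the 3.8%. The adjusted p of *Cd79a* ranged from 0.115 to 0.989 over the alternatives. The number of the 9 genes lower at an unadjusted limma p under 0.05 also moved. It was 1 with all 17 mice in 1 fit (574 of 21930 genes lower at it). It was 4 without the trend (829 of 21930) or without U9-KO male 3 (746 of 21478). In the other limma fits, apart from that without WT male 2, it was 5 to 7.

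**Figure D1:**
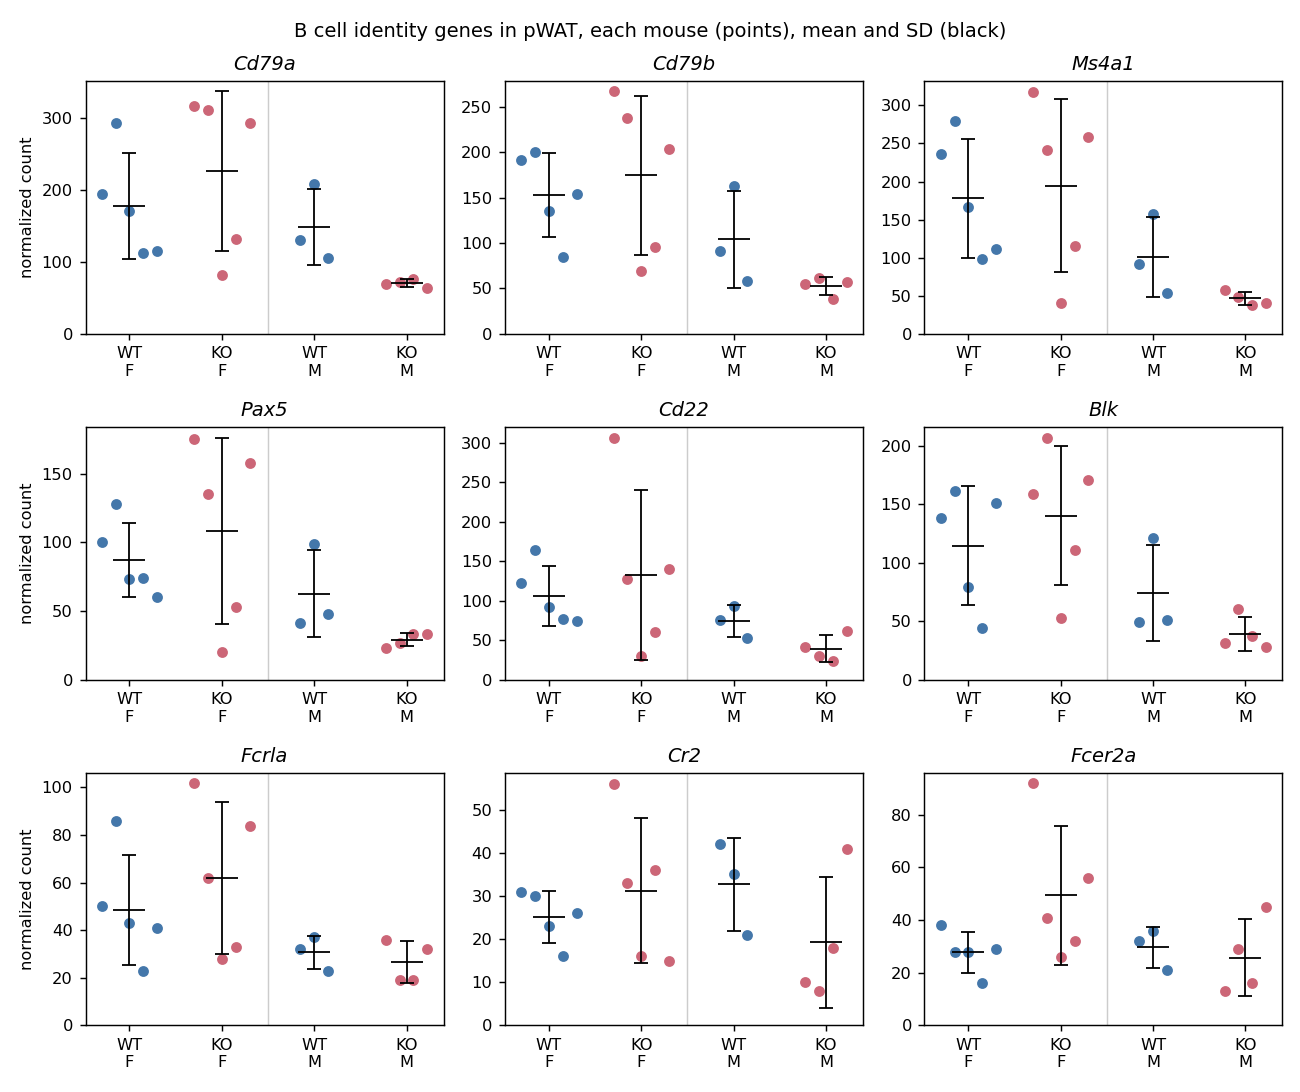
Normalized counts of the 9 B cell identity genes on the y axis, 1 panel per gene and 1 point per mouse, for WT and U9-KO females (F, left of the line) and males (M), with the mean and SD in black. The 4 U9-KO males lie between 64 and 77 for *Cd79a*, below all 3 WT males, while the U9-KO females spread from 82 to 317 around the WT females.

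In females the same genes spread widely within both genotypes and the genotypes overlapped for all 9. *Cd79a* had 195, 293, 171, 113 and 116 normalized counts in WT females and 317, 311, 82, 132 and 293 in U9-KO females. The U9-KO group held both the highest and the lowest female, and the means were 178 ± 73.5 and 227 ± 111 (SD, n = 5 each). *Cd79b* had 191, 200, 135, 85 and 154 in WT and 267, 238, 69, 96 and 204 in U9-KO females. *Blk* had 138, 161, 79, 44 and 151 in WT and 159, 207, 53, 111 and 171 in U9-KO females. The log2 fold changes of the 3 receptor signalling genes were 0.26 (SE 0.40) for *Cd79a*, 0.07 (SE 0.38) for *Cd79b* and 0.30 (SE 0.42) for *Blk*.

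The 2 membrane genes and *Pax5* showed the same split among U9-KO females, with mice 1, 2 and 5 high and mice 3 and 4 low. *Ms4a1* had 236, 279, 166, 98 and 111 normalized counts in WT and 318, 241, 41, 115 and 259 in U9-KO females. *Cd22* had 123, 164, 92, 77 and 74 in WT and 306, 127, 30, 60 and 140 in U9-KO females. *Pax5* had 100, 128, 73, 74 and 60 in WT and 175, 135, 20, 53 and 158 in U9-KO females. Their mean log2 values differed between genotypes by at most 0.07, with log2 fold changes of -0.07 (SE 0.52) for *Ms4a1*, -0.02 (SE 0.52) for *Cd22* and -0.01 (SE 0.53) for *Pax5*.

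*Fcrla* had 50, 86, 43, 23 and 41 normalized counts in WT and 102, 62, 28, 33 and 84 in U9-KO females, a log2 fold change of 0.29 (SE 0.42). *Cr2* had 31, 30, 23, 16 and 26 against 56, 33, 16, 36 and 15, a log2 fold change of 0.17 (SE 0.37), and U9-KO female 5, high for most of the other genes, was the lowest female here. *Fcer2a* had the largest female difference, with 38, 28, 28, 16 and 29 against 92, 41, 26, 32 and 56. Its highest value was in U9-KO female 1 and its lowest in WT female 4, the 2 libraries with the most ovary transcripts. Without both, its log2 fold change was 0.28. Its groups still overlapped, and its log2 fold change of 0.71 (SE 0.35) came with an unadjusted p of 0.0659 (limma over 24825 genes, adjusted p = 1).

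Across the females, 6 of the 9 genes had a higher and 3 a lower mean log2 value in U9-KO mice, the median of their log2 fold changes was 0.17, and 49.9% of all genes tested were lower. By limma none of the 9 was below an adjusted p of 0.05 (0.0% of 24825 genes were) or an unadjusted p under 0.05 (2.23% did), and none had groups that did not overlap (0.0685% of all genes were lower and 0.169% higher without overlap). U9-KO female 1 was the highest female for 8 of the 9 genes, and U9-KO female 3 was the lowest for 5 and among the lowest 3 for all 9. Leaving out WT female 1, U9-KO female 3 or U9-KO female 4 brought 1 of the 9, *Fcer2a*, under an unadjusted p of 0.05. In those fits 664 of 24493, 473 of 24504 and 1225 of 24492 genes were under it in either direction. The sign of the median rested on single mice. It was 0.50 without U9-KO female 3, -0.080 without U9-KO female 1 and -0.0050 without WT female 4, the latter 2 being the libraries with the most ovary transcripts. With both of these left out, 8 of the 9 genes were lower in U9-KO females and the median was -0.23, from -0.52 for *Cd22* to 0.28 for *Fcer2a*, with exact permutation p-values of at least 0.286 (n = 4 each).

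The contrast between the sexes was tested directly as the male log2 fold change minus the female one. It was below 0 for all 9 genes, against 50.2% of the 26289 genes tested, with a median of -0.99. The difference was -1.26 (SE 0.54) for *Cd79a*, the only 1 of the 9 with an unadjusted p under 0.05 (0.0333), against 1.97% of all genes on the lower side. No gene passed the adjusted threshold (0.0% of 26289), and the adjusted p was 1 for each of the 9. *Fcrla* had the smallest difference, -0.53 (SE 0.59). Single mice moved these values. Without WT male 2 the median difference was -0.71, without U9-KO female 1 it was -0.73, and without WT female 4 it was -0.84. The latter 2 mice gave the libraries with the most ovary transcripts. The contrast was not refitted without both, and the female values without both are given above. Without U9-KO female 3 the median difference was -1.36, and 7 of the 9 genes, all but *Cr2* and *Fcrla*, had an unadjusted p under 0.05. In that fit 661 of 26110 genes were lower at that threshold. The count among the 9 genes was 2 without WT male 3 (502 of 26146 genes lower at it) or U9-KO male 4 (487 of 26143). It was 0 without WT female 4 or 5, U9-KO female 1, 2 or 5, or WT male 2.

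**Figure D2:**
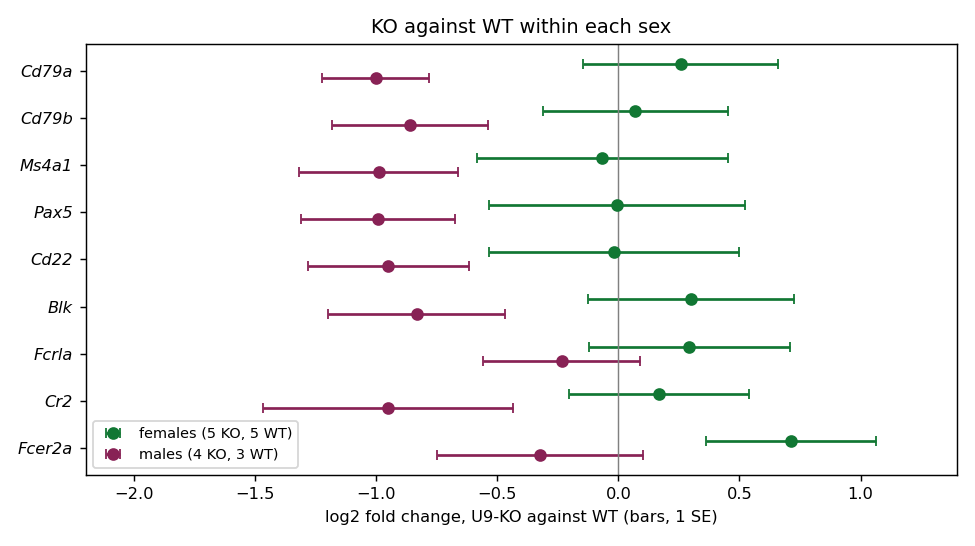
Log2 fold change of U9-KO against WT mice on the x axis for each gene, in females (green) and males (purple), with bars of 1 standard error. The male values run from -1.003 to -0.23 and the female values from -0.07 to 0.71, and no gene passed the adjusted threshold in either sex.

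The levels of the 9 genes were correlated from mouse to mouse. In the 10 females the Pearson correlation of log2(normalized count + 1) was above 0 for all 36 pairs, with a median r of 0.793, from 0.427 (*Pax5* and *Cr2*) to 0.962 (*Ms4a1* and *Pax5*). For the receptor pair *Cd79a* and *Cd79b* it was 0.917, with a permutation p of 0.00021 and an adjusted p of 0.00168 over 72 pairs in both sexes, a Spearman rho of 0.960, and an r of 0.851 without U9-KO females 3 and 1, the mice farthest from the median. For *Ms4a1* and *Pax5* the r without U9-KO female 3 and WT female 4 was 0.957. In all, 21 of the 36 female pairs had an adjusted p under 0.05 by r, and 21 by rho. With values centred on each genotype's mean the median r was 0.840, and without the 2 libraries rich in ovary transcripts it was 0.812. Without U9-KO females 3 and 1, the mice farthest from the median of the 9 genes, the median r was 0.765. In that setting 34 of the 36 pairs were above 0, and the lowest r was -0.206, for *Pax5* and *Cr2*.

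The correlations were not equal among the genes. Each gene of a mouse comes from the same library, so the points share its depth and scaling. Among *Cd79a*, *Cd79b*, *Ms4a1*, *Pax5*, *Cd22*, *Blk* and *Fcrla* the 21 female pairs had a median r of 0.901, from 0.666 to 0.962. The 15 pairs with *Cr2* or *Fcer2a*, a split made after the values were seen, had a median r of 0.586, from 0.427 to 0.803. Against the mean of the other 8 genes, r was 0.960 for *Cd79b*, 0.933 for *Cd79a* and 0.573 for *Cr2*. *Cr2* and *Fcer2a* also had the fewest reads, and counting error alone gave a coefficient of variation of 19.2% and 18.4% in WT females, where 24.0% and 28.1% were observed. For *Cd79a* the counting error was 7.18% and the observed value 41.4%.

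In the 7 males all 36 pairs were also above 0, with a median r of 0.6247, from 0.097 (*Blk* and *Fcrla*) to 0.962 (*Cd79b* and *Ms4a1*). By r, 5 of the 36 pairs had an adjusted p under 0.05 in exact permutation tests, and by rho 0 did. Centred on the genotype means the median r was 0.494. Much of it rested on WT male 2, since the median was 0.418 without that mouse and 0.403 without WT male 2 and U9-KO male 3. The pair *Cd79a* and *Cd79b* went from 0.878 in all males to 0.017 without WT males 2 and 1. Within the U9-KO males *Cd79a* varied by 7.60% (coefficient of variation), less than the 11.9% that counting error alone gives, so at this depth no difference in *Cd79a* among these 4 mice was detectable.

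**Figure D3:**
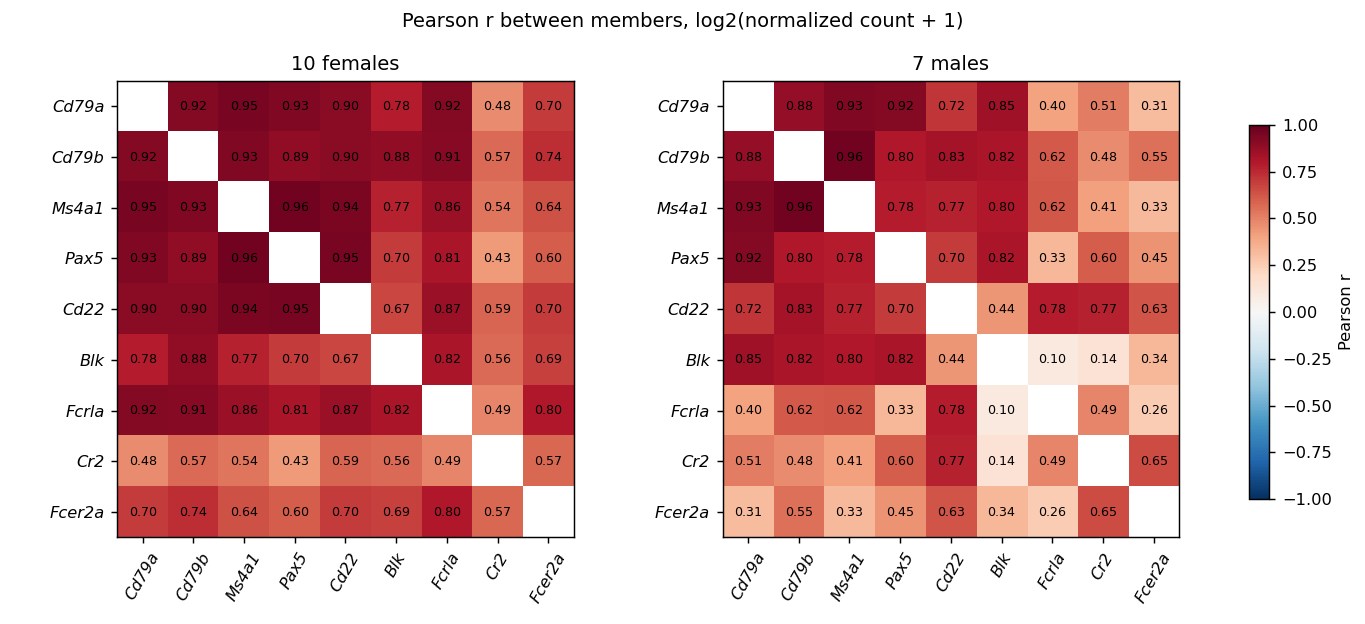
Pearson r between each pair of the 9 genes across the 10 females and the 7 males, coloured from -1 (blue) to 1 (red), on log2(normalized count + 1). The female pairs run from 0.427 to 0.962, and the rows of *Cr2* and *Fcer2a* are paler than the rest, while the male pairs run from 0.097 to 0.962.

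The genes whose level across mice was most like the 9 were sought among all genes averaging 10 or more normalized counts, by Pearson r with the mean of the 9 standardized log2 values. Among 17783 genes in the 10 females the first 10 included *Ly6d* (0.978), *Siglecg*, *Ighd*, *Rac2*, *Cacna1e*, *Gm8369*, *H2-Ob*, *Spib* and *Ptpn6* (0.941). *Ly6d*, *Siglecg* and *Ighd* encode B cell surface proteins, *H2-Ob* a modulator of antigen loading in B cells, and *Spib* a transcription factor of B cells and some dendritic cells. Among 16555 genes in the 7 males the first 10 included *Plscr3* (0.984), *Gm10134*, *Ms4a6c*, *Plek*, *Atpif1*, *Pdp1*, *Ms4a6b*, *Sat1* and *B4galnt1* (0.971), of which *Plek* is expressed in myeloid cells. The 2 sets of 10 shared 0 genes.

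Other genes of B cells, plasma cells and their neighbours were described by lists, with counts and medians only, and the median log2 fold change over all genes tested was 0.00 in both sexes. None of these lists was compared in females without both U9-KO female 1 and WT female 4, the libraries richest in ovary transcripts. Without both, most of the 9 B cell identity genes were lower in U9-KO females, as given above. In males 49.9% of all genes tested were lower in U9-KO mice and 4.09% were lower at an unadjusted p under 0.05, and in females 49.9% were lower and 2.23% had an unadjusted p under 0.05 in either direction. Of 16 partners and signalling genes of the antigen receptor, all 16 were lower in U9-KO males, 8 of them at an unadjusted p under 0.05, and their median was -0.44. In females 12 were higher and 4 lower, 0 at an unadjusted p under 0.05, with a median of 0.06. The 3 with the highest mean normalized count over all 17 mice, not per kilobase, were *Cd81*, a tetraspanin found on many cell types, with a log2 fold change of -0.05 (SE 0.07) in males, *Fcgr2b*, the inhibitory Fc receptor, with -0.46 (SE 0.16), and the kinase gene *Syk* with -0.54 (SE 0.18). In females they had -0.14 (SE 0.12), -0.14 (SE 0.16) and -0.06 (SE 0.19).

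Of 20 other B cell genes, 1 of them also on the list before, 17 were lower in U9-KO males, 12 at an unadjusted p under 0.05, with a median of -0.51. Among all genes 49.9% were lower in U9-KO males and 4.09% were lower at that threshold. In U9-KO females 15 of the 20 were higher, 0 at that threshold (2.23% of all genes in either direction), with a median of 0.11. *Ebf1*, a B lineage factor that adipose progenitors also express, had the highest mean normalized count of this list, not per kilobase, with values between 1465 and 5461, and did not follow the 9 genes (r of -0.05 in females and 0.22 in males). Its log2 fold change was 0.00 (SE 0.22) in females and 0.01 (SE 0.16) in males. *Cd37*, a leukocyte tetraspanin, had 0.11 (SE 0.26) in females and -0.54 (SE 0.19) in males, and *Cd24a* -0.11 (SE 0.34) and -0.28 (SE 0.24). Of 6 B-1 cell genes all 6 were lower in U9-KO males, 1 at an unadjusted p under 0.05, with a median of -0.27, and 5 were higher in females (0.20). No gene of any list passed an adjusted p of 0.05 in either sex.

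Genes of other white blood cells also had lower means in U9-KO males, to be read against the same 49.9% of all genes lower and 4.09% lower at an unadjusted p under 0.05. The 5 pan-leukocyte genes, *Ptprc*, *Laptm5*, *Cd53*, *Coro1a* and *Cd52*, were all lower in U9-KO males and all at an unadjusted p under 0.05, with a median of -0.53, and their summed level was 6617 to 8903 in WT and 4603 to 5777 in U9-KO males. All 12 T cell genes (median -0.57, 1 at an unadjusted p under 0.05) and all 9 myeloid genes (median -0.38, 5 at that threshold) were lower too, with summed levels of 480 to 788 against 330 to 542 and of 26839 to 44408 against 20197 to 26360. The 6 adipocyte genes had a median of 0.05. The lists of lymph node stroma, lymphatic vessel and mesothelium genes had medians between -0.19 and 0.09 in the sexes, and of the 7 ovary genes 6 were lower in U9-KO females (median -0.49). Taken relative to the mean log2 value of the pan-leukocyte genes in each mouse, the male difference was -0.48 for *Cd79a*, -0.47 for *Pax5*, -0.47 for *Ms4a1*, -0.43 for *Cd22*, -0.34 for *Cd79b*, -0.31 for *Blk* and -0.43 for *Cr2*, and it turned to 0.20 for *Fcer2a* and 0.29 for *Fcrla*. The exact permutation p-values of these differences were between 0.114 and 0.743. In females the 5 pan-leukocyte genes had a median of 0.12, with 1, *Cd52*, at an unadjusted p under 0.05, the 12 T cell genes 0.16, and all 9 myeloid genes were lower, with a median of -0.17, where 49.9% of all genes were lower and 2.23% had an unadjusted p under 0.05.

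**Figure D4:**
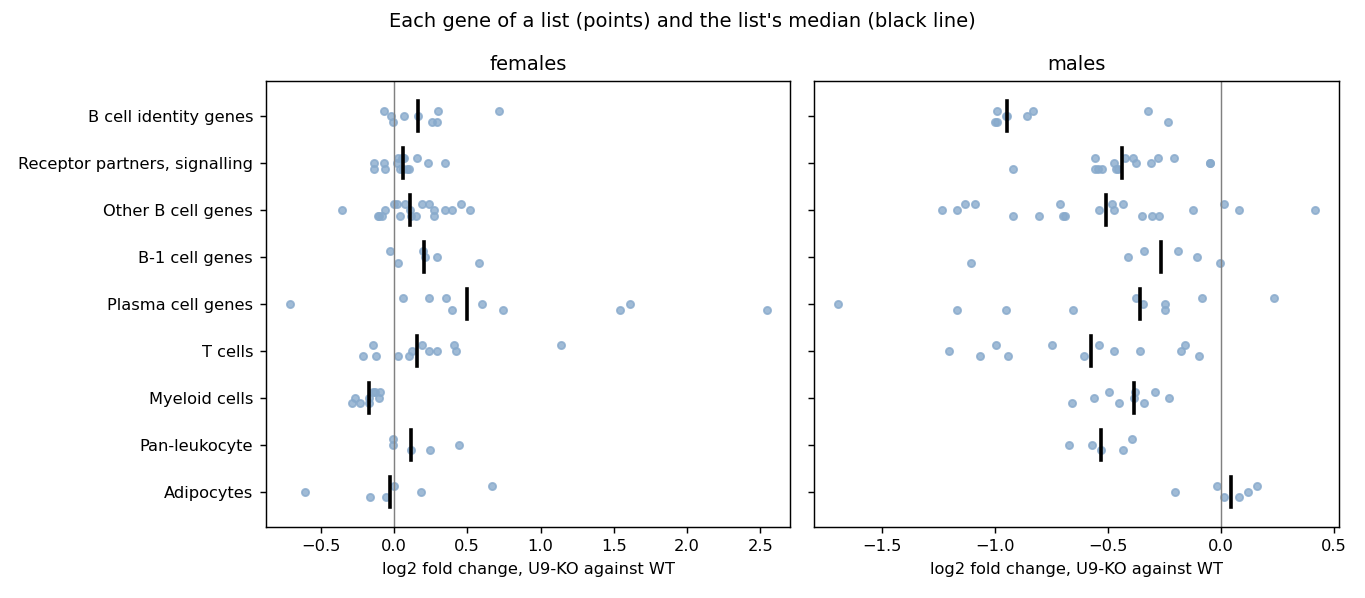
Log2 fold change of U9-KO against WT mice on the x axis for each gene (point) of 9 lists, in females and males, with the median of each list as a black line. In males the medians of all lists but the adipocyte genes lie between -0.95 and -0.27, and in females those of the B cell lists lie between 0.06 and 0.20.

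The receptor's immunoglobulin heavy chains are encoded by *Ighd* and *Ighm*. *Ighd*, the IgD constant region of naive B cells, had 104, 165, 89, 35 and 83 normalized counts in WT females and 227, 172, 38, 63 and 164 in U9-KO females, and its r with *Cd79a* was 0.947 in females (permutation p = 9e-05, adjusted p = 0.00072 over 16 relations, rho 0.973, 0.916 without U9-KO females 3 and 1). In males it had 132, 168 and 67 in WT and 66, 83, 68 and 93 in U9-KO mice, overlapping groups with a log2 fold change of -0.57 (SE 0.29). The male r of *Ighd* with *Cd79a* was 0.791 (exact permutation p = 0.0373, adjusted p = 0.0746, rho 0.50) and -0.591 without WT males 2 and 1. *Ighm*, the IgM constant region, which plasma cells also transcribe, had 5812, 10357, 1885, 1098 and 2556 in WT and 15921, 6607, 18193, 2869 and 5498 in U9-KO females. U9-KO female 3, lowest in the summed level of the 9 genes (365), was thus the highest female for *Ighm*, with 222 *Ighm* counts for each *Cd79a* count against 9.72 to 50.2 in the other 9 females. The r of *Ighm* with *Cd79a* was 0.347 in females (permutation p = 0.318, adjusted p = 0.424, rho 0.377) and 0.850 without U9-KO females 3 and 1.

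In males *Ighm* had 22352, 17275 and 10615 normalized counts in WT and 15227, 16668, 13359 and 26058 in U9-KO mice, with a log2 fold change of 0.11 (SE 0.27). The male r of *Ighm* with *Cd79a* was -0.037 (exact permutation p = 0.941, adjusted p = 0.955, rho -0.107) and -0.856 without WT males 2 and 1. The ratio of *Ighm* to *Cd79a* was 83.1 to 171 in WT and 173 to 407 in U9-KO males. *Jchain*, the joining chain of secreted IgM and IgA, marks plasma cells and had 120, 275, 341, 113 and 302 normalized counts in WT females and 2531, 576, 3471, 690 and 753 in U9-KO females. All 5 U9-KO females were above all 5 WT females, as 0.169% of all genes were, and the log2 fold change was 2.54 (SE 0.53; limma, unadjusted p = 0.000521 and adjusted p = 1). In males *Jchain* had 1575, 1491 and 301 in WT and 214, 616, 379 and 893 in U9-KO mice, and the groups overlapped. Its r with *Cd79a* was 0.02 in females (permutation p = 0.955, adjusted p = 0.955, rho 0.158, 0.390 without U9-KO females 3 and 1) and 0.595 in males (exact permutation p = 0.155, adjusted p = 0.249, rho 0.464, -0.47 without WT males 2 and 1). Of 10 plasma cell genes, 9 were higher in U9-KO females (median 0.50, 4 at an unadjusted p under 0.05, against 2.23% of all genes). In U9-KO males 9 were lower (median -0.36, 1 at that threshold, against 4.09% of all genes lower at it). That 1 gene was *Pou2af1*, which is also on the list of other B cell genes. This list was not refitted without U9-KO female 1 and WT female 4, the females richest in ovary transcripts. These 2 mice were the highest females for *Sdc1* (1890 and 1608) and *Derl3* (322 and 219).

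*Cxcl13*, the chemokine that draws B cells into follicles and fat-associated clusters, stood out in WT male 2, with 2157 normalized counts against 298 and 64 in the other WT males and 37, 141, 42 and 68 in U9-KO males. WT male 2 was also the male with the highest *Cd79a*. The r of *Cxcl13* with *Cd79a* was 0.881 in males (exact permutation p = 0.0157, adjusted p = 0.0418, rho 0.607) and -0.03 without WT males 2 and 1, so it rested on those mice. In females *Cxcl13* had between 92, in U9-KO female 3, and 598, in U9-KO female 2, and its r with *Cd79a* was 0.715 (permutation p = 0.00635, adjusted p = 0.0222, rho 0.571, 0.724 without U9-KO females 3 and 1). *Ptprc*, the pan-leukocyte surface phosphatase CD45, had an r with *Cd79a* of 0.762 in females (permutation p = 0.00695, adjusted p = 0.0222, rho 0.863, 0.729 without U9-KO females 3 and 1) and of 0.787 in males (exact permutation p = 0.0343, adjusted p = 0.0746, rho 0.464, 0.658 without WT males 2 and 1). For *Adgre1*, a macrophage surface receptor, r was 0.449 in females (adjusted p = 0.287) and 0.617 in males (adjusted p = 0.249). *Cd3e*, a T cell receptor chain, had an r with *Cd79a* of 0.08 in females and 0.14 in males.

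**Figure D5:**
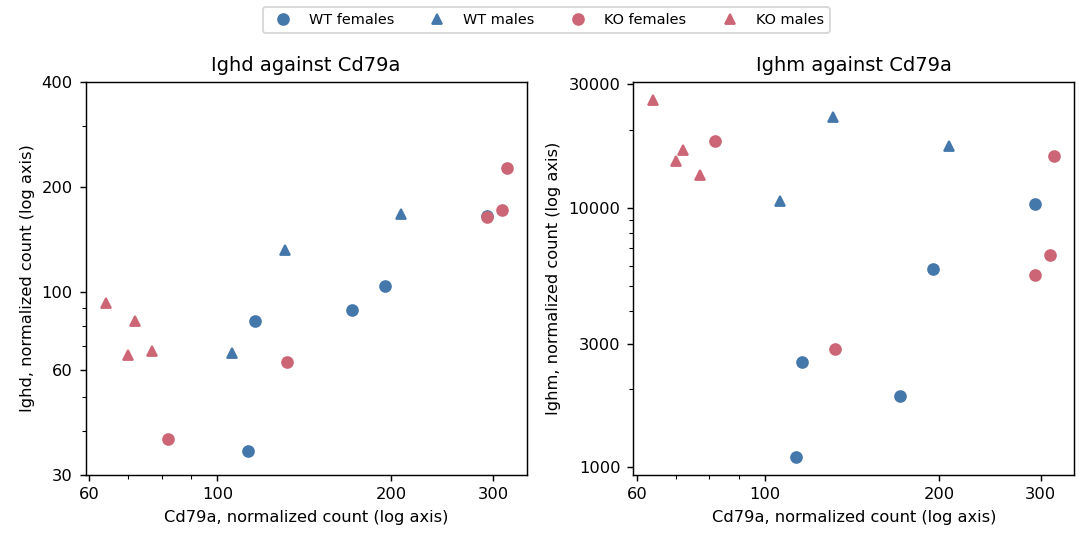
Normalized counts of *Ighd* and *Ighm* (y axes, logarithmic) against those of *Cd79a* (x axes, logarithmic), 1 point per mouse, with circles for females, triangles for males, blue for WT and red for U9-KO. In females *Ighd* lies close to a line with *Cd79a* (r of 0.947), whereas U9-KO female 3 and the males lie high in *Ighm* for their *Cd79a*.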

How the data were processed

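Total RNA from whole pWAT was made into stranded libraries and sequenced as paired ends by the authors. Reads were trimmed with trim_galore, aligned with STAR 2.7.3a to GRCm38 and counted by summarizeOverlaps (Union mode), and size factors were taken with DESeq2 1.28.1 (versions per the submitters' processing notes). The annotation and strand setting were not given in the sources used here. The deposited values are counts divided by a size factor and rounded to whole numbers by the authors, treated here as a score rather than raw counts, so no count model was fitted. The size factor of each library was read from the gaps that rounding leaves among values up to 60, which gave 19707134 to 27608168 reads. Gene levels scaled in this way depend on the other genes of a library. A series table repeating the single-library values was not used.

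Groups followed the labels, and the headers of 2 male columns carried other replicate numbers. Same-group libraries (29 pairs) differed in at least 24469 genes. Genes with a total of at least 10 were tested on log2(normalized count + 1) with limma 3.58.1 (trend) in R 4.3.3, within each sex and for the sex difference, with Benjamini-Hochberg adjustment over all genes and a threshold of 0.05. An unadjusted p under 0.05 is quoted as a description. Exact permutation tests were two-sided and cannot go below 0.00794 for 5 against 5 mice or 0.0571 for 3 against 4. Correlations used 100000 resamples in females and all 5040 orderings in males. Python 3.11.15, numpy 2.4.6, pandas 2.3.3 and scipy 1.17.1 were used. The scripts were tested on simulated data. Each library came from its own mouse. Named genes were the 9 genes, the 3 genes with the highest mean normalized count over all mice from each of 2 B cell lists, and the 10 genes most like the 9 in each sex, and *Ighm*, *Ighd*, *Jchain*, *Cxcl13*, *Cd3e*, *Adgre1* and *Ptprc* as partners of *Cd79a*. Some genes that this rule names are not reported here. The genes and lists were chosen with earlier results of these data known. Gene positions are from GENCODE M21, and gene length is the union of annotated exons.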

Additional observations from a re-analysis of the deposited data

Results flagged for a closer look

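In groups of 4 or 5 mice, 66 sets of values were searched for a mouse standing apart from the rest (Dixon's test), of which chance would mark about 3.3, and 3 were marked. None was among the 9 B cell identity genes or their sum. *Fcgr2b*, the inhibitory Fc receptor of B cells and myeloid cells, had 474 normalized counts in U9-KO female 3, where the other U9-KO females had 782 to 881. *Ebf1* had 1474 in WT female 4, against 2512 to 2867 in the other WT females, and *Ptprc*, the leukocyte protein CD45, had 654 in the same mouse, against 1020 to 1156. WT female 4 was 1 of the 2 libraries with the most ovary transcripts.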

How the results depend on the processing

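The alternatives were a pseudocount of 0.5, no filter, a mean of at least 10, no trend, robust empirical Bayes, quantile normalization, an equal summed count, a replicate block, all 17 mice in 1 fit and each mouse left out. Added after seeing the data were a scaling to the pan-leukocyte genes and leaving out the 2 females with the most ovary transcripts. No limma fit brought any of the 9 genes below an adjusted p of 0.05, and the added alternatives were tested by exact permutation only. Without the trend limma called 1 gene in females (*Hfm1*) and 1 in males (*4930583P06Rik*), and without the filter 1 gene for the sex difference (*Lrp8os1*), all named after their values were seen. With single mice left out the number called was 0 to 71 in males, 71 only without WT male 1. In males all 9 genes kept a negative log2 fold change in every limma fit, and relative to the pan-leukocyte genes *Fcrla* had 0.29 and *Fcer2a* 0.20. In females the sign was not stable. *Cd79b* had -0.0078 with equal sums and -0.089 relative to the pan-leukocyte genes, and *Cd22* 0.015 under quantile normalization. Without the 2 females rich in ovary transcripts the log2 fold changes were -0.049 for *Cd79a*, -0.32 for *Cd79b*, -0.085 for *Blk*, -0.16 for *Fcrla* and -0.23 for *Cr2*. With single females left out they ranged from -0.13 to 0.36 for *Cd79b*, -0.32 to 0.41 for *Ms4a1*, -0.27 to 0.50 for *Pax5*, -0.42 to 0.41 for *Cd22*, -0.0050 to 0.61 for *Blk* and -0.080 to 0.38 for *Cr2*. The cause was not tested. The replicate numbers shared between WT and U9-KO mice were not treated as pairs. Deviations of same-numbered mice correlated at -0.44 to 0.11 in females and -0.12 to -0.01 in males. Differently numbered females reached 0.61, for WT female 4 with U9-KO female 1, the libraries with the most ovary transcripts. These values cannot settle whether the numbers mark pairs, since the labels' numbers were used and 2 male headers carried others. With the replicate number as a block limma called 0 genes in females, in males and for the sex difference. At an unadjusted p under 0.05 were 456, 1393 and 777 genes, of which 1, 7 and 5 were among the 9 genes. The depth left *Cr2*, *Fcer2a* and *Fcrla* with few reads, so that differences of the size of their counting error were not detectable.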
